A study of Mus musculus with 12 samples.

Results

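The enzymes described here return used parts of S-adenosylmethionine (SAM) and of purine nucleosides to the cell: 5 of them rebuild methionine from methylthioadenosine (Mtap, Mri1, Apip, Enoph1 and Adi1), and 5 recycle purine bases and nucleosides (Aprt, Hprt, Adk, Ada and Pnp). They were chosen by gene name, with earlier results of these data known, and all 10 were found by Ensembl identifier among the 12591 genes of the expression table. RNA was taken from immortalised embryonic fibroblasts (MEFs) of heterozygous PER2::LUC mice (strain C57 PER2::LUC), in which luciferase is fused to the circadian clock protein PER2. The 4 groups, each of 3 dishes, were control (CTL) and cells given 10 µM deazaneplanocin A (DZ), 1 mM adenine or 1 mM SAM. Confluent cells of every group, CTL included, were kept for 24 h in fresh medium holding 3.3 mM HCl, the solvent of adenine. DZ is an inhibitor of AHCY, the enzyme that splits S-adenosylhomocysteine into adenosine and homocysteine, and the comparisons ask how RNA levels answered this inhibitor, an excess of SAM and an excess of the adenine that SAM breakdown can yield. The sources used here do not give separate animals for the dishes, so the p-values measure only the spread between dishes.

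Methylthioadenosine is what remains of SAM once its aminopropyl group has gone into polyamines. MTAP cuts it into adenine and methylthioribose 1-phosphate, and MRI1, APIP, ENOPH1 and ADI1 then carry the sugar through an isomerase, a dehydratase, an enolase-phosphatase and a dioxygenase to the keto acid of methionine, which a transaminase turns into methionine. The adenine is joined to phosphoribosyl pyrophosphate (PRPP) by APRT to give AMP, and HPRT does the same for hypoxanthine and guanine. Inside the cell, ADK phosphorylates adenosine to AMP and ADA deaminates it to inosine, from which PNP frees hypoxanthine for HPRT.

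Values are given as deposited, in log2 CPM, the logarithm of counts scaled by the authors to a common library size, so that a difference of 1 is a doubling. Between 45649534 and 56789090 reads per library lay on the listed genes. The least abundant of the enzymes, Ada, was read at least 234 times in every library. SAM replicate 3 stood apart from its group. Over all genes, the chi-square of its reads per degree of freedom was 19.1 and 15.7 against SAM replicates 1 and 2, whereas the other pairs of replicates gave 4.76 to 7.07. Results for SAM are therefore given also without that library. Of 10 fibroblast markers, 7 were listed, with Dcn, Lum and Fap not among the genes that reached 1 CPM in all libraries, and the 7 listed markers themselves moved with treatment, as 7 rose under DZ, 5 rose and 1 fell under adenine, and 6 rose and 1 fell under SAM. Their summed level was 14.32 to 14.35 log2 CPM in CTL and 14.70 to 14.73 under DZ. Under adenine it was 14.48 to 14.61, and under SAM 13.76 to 13.90. Fn1, the most abundant of the 7 in CTL, was the marker that fell. Its mean was 12094 CPM in CTL, 8977 under adenine and 4066 under SAM, so the lower sum under SAM does not stand for the markers that rose. The part of the marker sum in the results was not tested. None of the 9 leukocyte, 4 epithelial and 4 endothelial markers was listed. In whole dishes, fewer cells of a type and less RNA per cell cannot be told apart.

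Per length, Aprt was the most abundant of the enzymes in CTL, with a mean of 95.2 ± 5.60 (SD, n = 3) CPM per kilobase of annotated exon. Mtap followed with 37.7 ± 0.811 and Pnp with 18.6 ± 0.537. Hprt (13.1 ± 0.427) and Mri1 (12.6 ± 0.806) overlapped between dishes and could not be ordered. Adk stood at 6.11 ± 0.250 and Adi1 at 4.59 ± 0.0328. Apip (2.36 ± 0.0686) and Enoph1 (2.13 ± 0.109), 2 enzymes in the middle of the methionine branch, were close to each other with no overlap, and Ada was the least abundant at 1.10 ± 0.178. The order of the middle members depended on the length used. For Apip, all annotated exons together span 7726 bases and the canonical transcript 973, over which its level in CTL was 18.7 CPM per kilobase.

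Each of the 10 enzymes changed in at least 1 of the 3 comparisons with CTL, as judged by limma with Benjamini-Hochberg adjustment over all genes at a false discovery rate (FDR) of 0.01. Apip and Aprt changed in all 3. The shares of all genes that did either were not counted. Under SAM alone 69.3% of all genes passed, so neither count is read as a trait of these enzymes. Under DZ 7 of the 10 changed, 6 upward and 1 downward, where 45.9% of all genes passed the same test, 22.6% upward and 23.4% downward. Under adenine 4 changed, 1 upward and 3 downward, against 61.6% of all genes (30.6% upward and 31.0% downward). Under SAM 7 changed, 3 upward and 4 downward, against 69.3% of all genes (33.7% upward and 35.7% downward). The treated dishes did not overlap with CTL in 8 members under DZ (65.4% of all genes), 6 under adenine (74.7%) and 7 under SAM (77.6%). With so much of the transcriptome moving, these counts lay on both sides of the background. The median log2 fold change of the 10 enzymes was 0.25 under DZ, -0.04 under adenine and 0.03 under SAM, and that of all genes was -0.01, -0.003 and -0.02. The 3 comparisons share the CTL dishes. The plot of the values by library shows 3 kinds of profile. DZ dishes lay above those of every other group in Mri1, Ada, Mtap and Aprt. Adenine and SAM dishes lay below those of CTL and DZ in Adi1 and Aprt, so that Aprt showed both kinds. SAM dishes lay at the top or bottom of all groups in Apip, Enoph1 and Hprt.

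**Figure D1:**
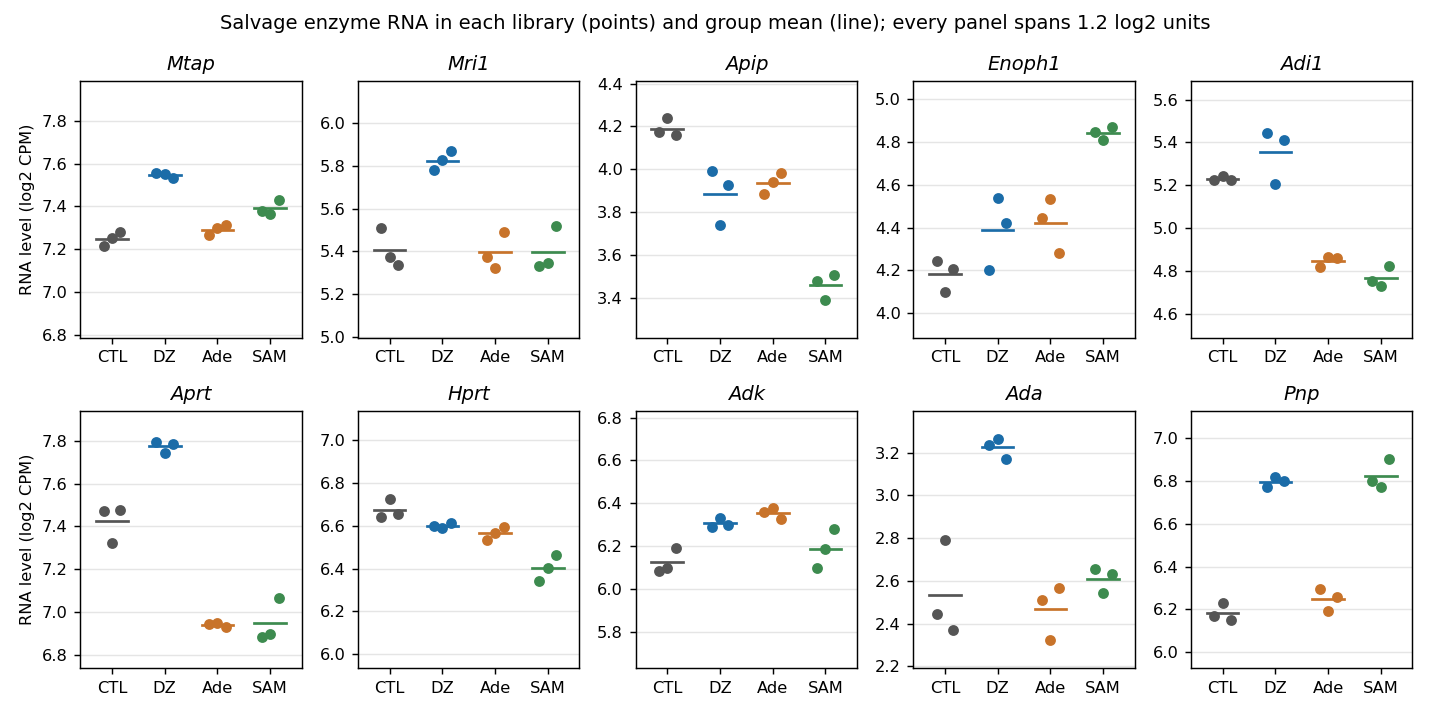
RNA level of each of the 10 enzymes in log2 CPM (vertical axes, each spanning 1.2 log2 units) in the 3 libraries of CTL, DZ, adenine (Ade) and SAM; points are libraries and lines are group means. The 3 DZ libraries of Ada, Mri1, Mtap and Aprt lie above those of all other groups. The adenine and SAM libraries of Aprt and Adi1 lie below those of CTL.

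Mtap (ENSMUSG00000062937, GRCm39 chromosome 4, 89055359 to 89099319, plus strand), which opens the pathway by releasing adenine from methylthioadenosine, rose under DZ and slightly under SAM. Its level was 7.22, 7.25 and 7.28 log2 CPM in the CTL dishes, 7.56, 7.55 and 7.53 under DZ, 7.27, 7.30 and 7.31 under adenine, and 7.38, 7.37 and 7.43 under SAM. DZ and SAM lay wholly above CTL, while adenine and CTL overlapped. The log2 fold change was 0.30 under DZ (SE 0.028, adjusted p = 3.68e-07) and 0.14 under SAM (SE 0.028, adjusted p = 2.62e-04; 0.12 without SAM replicate 3), or 22.9% and 10.3% more RNA. Under adenine it was 0.04, with a 95% interval of -0.02 to 0.10 that does not reach the estimate for DZ or SAM, and it was -0.01 with median centring and 0.10 (adjusted p = 3.48e-03) with reads scaled to plain library totals. The RefSeq promoter of Mtap, from 250 bases before to 50 bases after the annotated start, is shown with that of Aprt, Ada and Pnp below, as examples from the 6 members that rose under DZ (the others were Mri1 and Adk); capitals mark matches to the motifs described further on, and this window lies at chr4:89055357-89055656 of GRCm39, plus strand.
Mtap: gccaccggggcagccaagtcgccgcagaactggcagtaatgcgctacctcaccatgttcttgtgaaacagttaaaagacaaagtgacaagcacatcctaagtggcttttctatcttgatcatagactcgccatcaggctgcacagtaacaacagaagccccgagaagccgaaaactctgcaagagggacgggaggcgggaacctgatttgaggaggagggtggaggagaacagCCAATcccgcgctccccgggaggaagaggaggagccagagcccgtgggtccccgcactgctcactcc
The RefSeq start lies 248 bases inside the canonical GENCODE transcript.

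Mri1 (ENSMUSG00000004996, chromosome 8, 84976535 to 84983968, minus strand), the isomerase of the second step, passed the test under DZ and not under adenine or SAM. Its level was 5.51, 5.37 and 5.34 log2 CPM in CTL, 5.78, 5.83 and 5.87 under DZ, 5.37, 5.32 and 5.49 under adenine, and 5.33, 5.35 and 5.52 under SAM. The CTL, adenine and SAM dishes overlapped, and all lay below DZ. The log2 fold change under DZ was 0.42 (SE 0.060, adjusted p = 2.82e-05), or 33.6% more RNA. Under adenine and SAM it was -0.01 in each case, with 95% intervals of -0.14 to 0.12, and its sign turned when reads were scaled to plain totals.

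Apip (ENSMUSG00000010911, chromosome 2, 102903972 to 102926603, plus strand) encodes the dehydratase of the third step. It was the only member to pass the test downward under all 3 treatments, and the fall under SAM was the deepest of the 10. Its level was 4.17, 4.24 and 4.16 log2 CPM in CTL, 3.99, 3.74 and 3.92 under DZ, 3.88, 3.94 and 3.98 under adenine, and 3.48, 3.39 and 3.51 under SAM. All treated dishes lay below all CTL dishes, those with SAM lowest, and DZ and adenine overlapped. Apip fell by 0.73 under SAM (SE 0.069, adjusted p = 9.32e-08), or by 39.8%, and by 0.76 without SAM replicate 3. It fell by 0.30 under DZ (SE 0.069, adjusted p = 1.50e-03) and by 0.25 under adenine (SE 0.069, adjusted p = 3.80e-03). The adenine call did not hold without adenine replicate 1 (-0.23, adjusted p = 0.0188), without adenine replicate 2 (-0.26, adjusted p = 0.0112), without CTL replicate 2 (-0.23, adjusted p = 0.0174) or when reads were scaled to plain totals (-0.19, adjusted p = 0.0215).

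Enoph1 (ENSMUSG00000029326, chromosome 5, 100186440 to 100216783, plus strand), the enolase-phosphatase that acts on the product of APIP, moved the other way under SAM. Its level was 4.24, 4.10 and 4.21 log2 CPM in CTL, 4.20, 4.54 and 4.42 under DZ, 4.44, 4.53 and 4.28 under adenine, and 4.85, 4.81 and 4.87 under SAM. The SAM dishes lay above all others, and DZ overlapped with CTL. Enoph1 rose under SAM with a log2 fold change of 0.66 (SE 0.080, adjusted p = 1.87e-06; 0.65 without SAM replicate 3), or 58.1% more RNA. The log2 fold changes of 0.21 under DZ (adjusted p = 0.0397) and 0.24 under adenine (adjusted p = 0.0156) did not pass the threshold, although the adenine dishes lay above CTL. Both estimates passed under some alternatives, DZ without DZ replicate 1 (0.30, adjusted p = 3.59e-03) and adenine without adenine replicate 3 (0.31, adjusted p = 4.96e-03), without DZ replicate 1 (0.24, adjusted p = 5.10e-03) or without DZ replicate 2 (0.24, adjusted p = 9.37e-03), and adenine also with reads scaled to plain totals (0.30, adjusted p = 3.53e-03), in a fit of the adenine and CTL dishes alone (adjusted p = 9.21e-03) and with robust empirical Bayes (adjusted p = 9.98e-03).

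Adi1 (ENSMUSG00000020629, chromosome 12, 28725183 to 28797609, plus strand), the dioxygenase of the last step before transamination, fell under adenine and SAM. Its level was 5.22, 5.24 and 5.22 log2 CPM in CTL, 5.45, 5.20 and 5.41 under DZ, 4.82, 4.86 and 4.86 under adenine, and 4.75, 4.73 and 4.82 under SAM. The adenine and SAM dishes overlapped with each other and lay below CTL and DZ. Adi1 fell by 0.38 under adenine (SE 0.055, adjusted p = 1.57e-05) and by 0.46 under SAM (SE 0.055, adjusted p = 1.57e-06; by 0.49 without SAM replicate 3), changes of -23.3% and -27.4%. Under DZ the log2 fold change was 0.12 (adjusted p = 0.0676), and without DZ replicate 2, which stood below the other two DZ dishes, it was 0.20 (adjusted p = 2.56e-03). Under SAM, 2 members of the methionine branch thus rose (Mtap and Enoph1) and 2 fell (Apip and Adi1), while Mri1, the step between MTAP and APIP, had a log2 fold change of -0.01 (adjusted p = 0.904).

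Aprt (ENSMUSG00000006589, chromosome 8, 123301184 to 123303648, minus strand), the enzyme that salvages free adenine into AMP, rose under DZ and fell under adenine and SAM. Its level was 7.47, 7.32 and 7.48 log2 CPM in CTL, 7.80, 7.74 and 7.78 under DZ, 6.94, 6.95 and 6.93 under adenine, and 6.88, 6.89 and 7.06 under SAM. DZ lay above CTL without overlap, adenine and SAM below it, and the latter groups overlapped with each other. The log2 fold change under DZ was 0.35 (SE 0.047, adjusted p = 1.55e-05), or 27.6% more RNA. Aprt fell by 0.48 under adenine (SE 0.047, adjusted p = 2.09e-07) and by 0.48 under SAM (SE 0.047, adjusted p = 1.84e-07; by 0.54 without SAM replicate 3), changes of -28.5% and -28.1%. It was the only one of the 10 enzymes to pass the test upward in 1 comparison and downward in others. Its promoter, at chr8:123303597-123303896 on the minus strand, is read here 5′ to 3′ with 3 GC boxes in capitals.
Aprt: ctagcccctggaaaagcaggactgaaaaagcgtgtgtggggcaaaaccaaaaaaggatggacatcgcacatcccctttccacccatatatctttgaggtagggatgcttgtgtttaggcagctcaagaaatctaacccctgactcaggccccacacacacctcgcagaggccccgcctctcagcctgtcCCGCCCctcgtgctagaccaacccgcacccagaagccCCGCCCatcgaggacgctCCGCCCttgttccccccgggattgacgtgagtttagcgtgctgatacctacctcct

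Hprt (ENSMUSG00000025630, annotated as Hprt1, chromosome X, 52076892 to 52111304, plus strand) does for hypoxanthine and guanine what APRT does for adenine, and it fell under SAM. Its level was 6.64, 6.73 and 6.66 log2 CPM in CTL, 6.60, 6.59 and 6.61 under DZ, 6.53, 6.57 and 6.60 under adenine, and 6.34, 6.40 and 6.47 under SAM. All treated groups lay below CTL, and the SAM dishes lay below all others. Hprt fell by 0.27 under SAM (SE 0.036, adjusted p = 4.50e-06; by 0.30 without SAM replicate 3), or by 17.1%. The log2 fold changes of -0.07 under DZ (adjusted p = 0.0901) and -0.11 under adenine (adjusted p = 0.0133) did not pass. The adenine value passed without SAM replicate 1 (adjusted p = 9.43e-03) and without SAM replicate 3 (adjusted p = 4.65e-03), at the same estimate with a smaller pooled error, and with the replicate numbers as a block (-0.11, adjusted p = 9.85e-03) or median centring (-0.16, adjusted p = 1.26e-03).

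Adk (ENSMUSG00000039197, chromosome 14, 21102618 to 21499916, plus strand), the adenosine kinase, rose under adenine and DZ. Its level was 6.08, 6.10 and 6.19 log2 CPM in CTL, 6.29, 6.33 and 6.30 under DZ, 6.36, 6.38 and 6.33 under adenine, and 6.10, 6.19 and 6.28 under SAM. DZ and adenine lay above CTL and overlapped with each other, and SAM overlapped with CTL. The log2 fold change was 0.23 under adenine (SE 0.043, adjusted p = 1.88e-04) and 0.18 under DZ (SE 0.043, adjusted p = 2.06e-03), or 17.4% and 13.5% more RNA. The DZ call did not hold without CTL replicate 1 (0.16, adjusted p = 0.0123) or without DZ replicate 2 (0.17, adjusted p = 0.0109). Under SAM the log2 fold change was 0.06, with a 95% interval of -0.03 to 0.16, and 0.02 without SAM replicate 3. With reads scaled to plain totals it was 0.19 (adjusted p = 1.02e-03), a scaling under which the median of all genes also stood higher under SAM, by 0.11.

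Ada (ENSMUSG00000017697, chromosome 2, 163565705 to 163592159, minus strand), the deaminase that competes with ADK for adenosine, likewise passed under DZ and not under adenine or SAM. Its level was 2.45, 2.79 and 2.37 log2 CPM in CTL, 3.24, 3.26 and 3.17 under DZ, 2.51, 2.32 and 2.56 under adenine, and 2.65, 2.54 and 2.63 under SAM. All DZ dishes lay above all others, and CTL, adenine and SAM overlapped. The log2 fold change under DZ, 0.69 (SE 0.11, adjusted p = 5.64e-05), was the largest of the 10 enzymes in that comparison and amounted to 61.2% more RNA. Under adenine it was -0.07 (95% interval -0.29 to 0.16) and under SAM 0.07 (95% interval -0.16 to 0.30), so that changes of up to 0.30 stay within the intervals. When 1 CPM was added to every value before the logarithm, Ada had 0.605 under DZ and Pnp 0.608. Their order under DZ was thus not stable. With 234 to 472 reads a library, Ada had the widest intervals of the set. Its promoter, at chr2:163592110-163592409 on the minus strand, holds 2 GC boxes and 1 CCAAT box.
Ada: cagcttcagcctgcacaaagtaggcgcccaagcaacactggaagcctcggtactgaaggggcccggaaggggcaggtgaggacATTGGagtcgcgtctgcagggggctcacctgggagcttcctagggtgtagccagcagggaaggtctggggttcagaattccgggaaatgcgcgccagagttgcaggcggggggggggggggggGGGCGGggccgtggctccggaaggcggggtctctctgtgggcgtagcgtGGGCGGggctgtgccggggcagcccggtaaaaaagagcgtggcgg

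Pnp (ENSMUSG00000115338, chromosome 14, 51168473 to 51190869, plus strand), which takes the inosine made by ADA to hypoxanthine, rose under DZ and SAM. Its level was 6.17, 6.23 and 6.15 log2 CPM in CTL, 6.77, 6.82 and 6.80 under DZ, 6.29, 6.19 and 6.26 under adenine, and 6.80, 6.77 and 6.90 under SAM. DZ and SAM overlapped with each other, and both lay above CTL and adenine, which overlapped in turn. The log2 fold change was 0.61 under DZ (SE 0.039, adjusted p = 5.72e-09) and 0.64 under SAM (SE 0.039, adjusted p = 4.76e-10; 0.60 without SAM replicate 3), or 53.1% and 56.0% more RNA. Under adenine it was 0.07, with a 95% interval of -0.02 to 0.15. Its promoter, at chr14:51181510-51181809 on the plus strand, holds 1 GC box and 1 CCAAT box.
Pnp: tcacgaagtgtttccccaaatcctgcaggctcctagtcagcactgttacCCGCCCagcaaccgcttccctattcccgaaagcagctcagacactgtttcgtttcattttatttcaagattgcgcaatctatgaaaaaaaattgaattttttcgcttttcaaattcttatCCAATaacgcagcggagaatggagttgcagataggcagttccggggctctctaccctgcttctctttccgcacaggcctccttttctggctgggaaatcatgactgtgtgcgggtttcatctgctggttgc

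**Figure D2:**
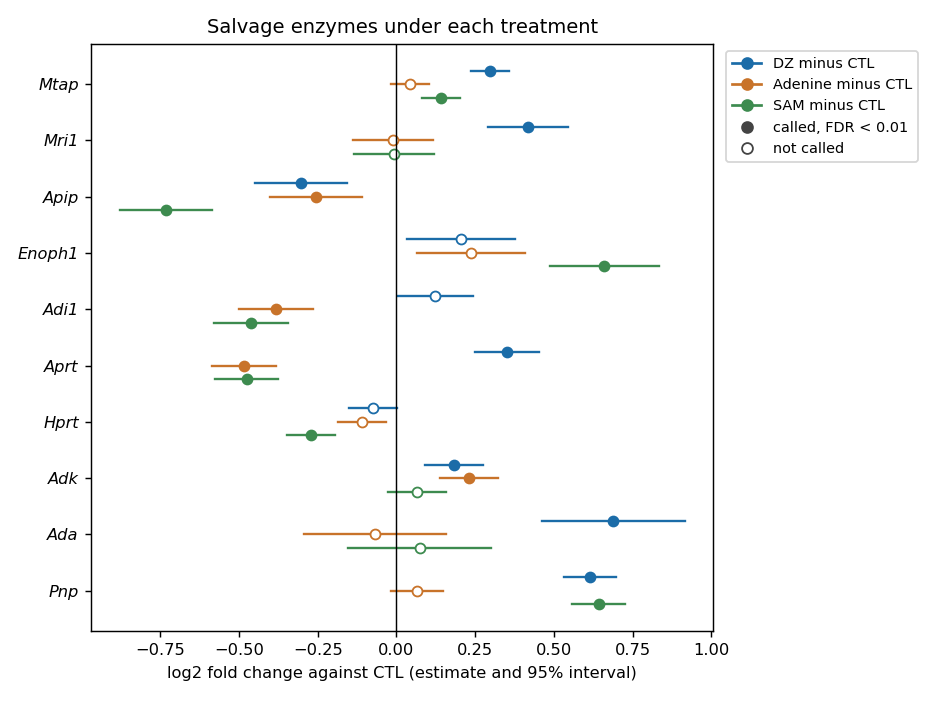
Log2 fold change against CTL (horizontal axis) of each of the 10 enzymes under DZ, adenine and SAM, with 95% intervals from limma; filled points passed an FDR of 0.01 and open points did not. Pnp stands near 0.6 under both DZ and SAM, Aprt is above 0 under DZ and near -0.5 under adenine and SAM, and Apip is below 0 throughout.

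Pnp has a close copy, Pnp2, beside it on chromosome 14 (51193449 to 51202734, plus strand), so that the values of both could hold reads of the other. Their annotated coding sequences, 867 bases in Pnp and 915 in Pnp2, were 93% identical over the alignment, with 16 mismatched bases, 48 gap positions and an identical run of 292 bases. The last part of the coding sequence is shown because it separates the copies, with the differing bases in capitals (Pnp coding bases 778 to 867 and Pnp2 coding bases 823 to 912, from the GENCODE transcripts).
Pnp: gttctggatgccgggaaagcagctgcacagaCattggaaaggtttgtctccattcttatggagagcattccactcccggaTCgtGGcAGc
Pnp2: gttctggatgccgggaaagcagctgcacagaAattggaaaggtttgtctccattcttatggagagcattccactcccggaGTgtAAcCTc
These stretches of 90 bases differed at 7 positions. Of 2867 windows of 76 bases (the read length) in the canonical Pnp transcript, 26.4% also occurred in a transcript of another gene, 401 of them in Pnp2 and 643 in Gm49342, a gene not listed in the table whose exons overlap those of Pnp on the same strand. Pnp2 itself rose by 0.58 with DZ (adjusted p = 7.02e-05) and by 0.66 with SAM (adjusted p = 8.41e-06), and had 0.03 with adenine (adjusted p = 0.769), close to the values of Pnp in each comparison. How the reads were divided between Pnp and Pnp2 was not tested.

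Apip, Enoph1, Adi1 and Ada share exon bases with a listed gene on the opposite strand. The library kit keeps strand, but whether strand was used in the counting is not given in the sources used here. Pkig, which overlaps Ada, rose by 1.16 with SAM (adjusted p = 4.60e-11) and 0.58 with adenine (adjusted p = 2.70e-07), with 0.12 for DZ (adjusted p = 0.0932). Trappc12, which overlaps Adi1, rose by 0.17 with SAM (adjusted p = 2.73e-03) and 0.15 with adenine (adjusted p = 6.93e-03), the treatments in which Adi1 fell. Pdhx, which overlaps Apip, passed in none of the comparisons with CTL, with -0.10, -0.17 and -0.16 under DZ, adenine and SAM. Hnrnpdl, which overlaps Enoph1, rose under DZ (0.12), adenine (0.28) and SAM (0.24), where Enoph1 had 0.21, 0.24 and 0.66. The mean in CTL was 202 CPM for Hnrnpdl and 18.1 CPM for Enoph1. Of 2273 windows of read length in the canonical Enoph1 transcript, 14.5% also occurred in Hnrnpdl on either strand, and of 898 in Apip 1.34% occurred in Pdhx. The other 7 members shared no such window with the longest transcript of another gene, the only one compared. Since exons of Ada and Adi1 overlap those of Pkig and Trappc12, this does not show that their values are free of such reads.

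**Figure D3:**
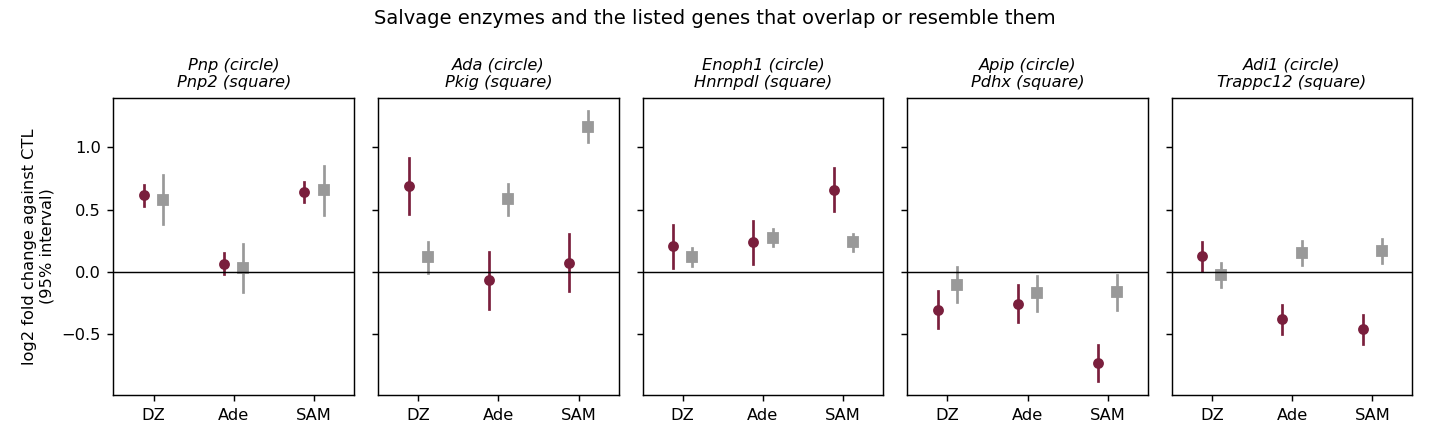
Log2 fold change against CTL with 95% intervals (vertical axis) of 5 enzymes (circles) and of the listed gene that overlaps or resembles each (squares), under DZ, adenine (Ade) and SAM. Pnp and Pnp2 have like values in each treatment, whereas Ada and Pkig stand on different levels in each. Adi1 and Trappc12 stand apart under adenine and SAM, and their intervals overlap under DZ.

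Promoters of 9 members were found in the RefSeq table, all but that of Adi1, and 6 motifs were searched on both strands. The GC box (GGGCGG) occurred in 8 of the 9, in 1 to 4 copies, and was missing in the Mtap window alone, whereas 35.9% of 27025 promoters of the same length held it. These 27025 were the first listed promoter of each gene symbol, whether or not the gene was in the expression table. They are thus not matched to the members, and enrichment was not tested. CCAAT occurred in 6 of the 9, against 37.9% of all promoters. The E-box CACGTG, a site of circadian clock factors, occurred once, in the Enoph1 window, against 7.24% of all promoters. The RefSeq start of the Enoph1 window lies 524 bases from the canonical GENCODE start, further than the length of the window. TATAAA, the cAMP response element TGACGTCA and the core of the interferon-stimulated response element occurred in none of the 9, against 14.2%, 1.88% and 3.49%. In the Adk window a GC box and a CCAAT box overlap. Aprt and Hprt, whose log2 fold changes under DZ were 0.35 and -0.07, each held 3 GC boxes and no CCAAT box. These are matches of letters and not measured sites.

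SAM and adenine were given at the same dose for the same time and form the 1 matched pair of compounds. SAM carries adenosine joined to methionine, whereas adenine is the purine base alone. Compared directly, 6 of the 10 enzymes differed, 3 higher and 3 lower with SAM, where 42.7% of all genes passed (20.8% higher and 22.0% lower). The dishes of the compounds did not overlap in 6 members, against 61.3% of all genes. Pnp was higher with SAM by 0.58 (SE 0.039, adjusted p = 1.23e-08; 0.54 without SAM replicate 3) and Enoph1 by 0.42 (SE 0.080, adjusted p = 4.08e-04; 0.41 without SAM replicate 3). Apip was lower with SAM, with a log2 difference of -0.48 (SE 0.069, adjusted p = 3.38e-05; -0.50 without SAM replicate 3), as were Hprt (-0.16, adjusted p = 1.30e-03; -0.19 without SAM replicate 3) and Adk (-0.17, adjusted p = 4.18e-03; -0.21 without SAM replicate 3). Mtap was higher with SAM by 0.10 (adjusted p = 7.44e-03). These last 3 were small, and their calls were less stable.

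The Mtap call did not hold without SAM replicate 3 (0.08, adjusted p = 0.0202), nor without SAM replicate 1 (0.10, adjusted p = 0.0139), any of adenine replicates 1 (0.09, adjusted p = 0.0346), 2 (0.10, adjusted p = 0.0195) and 3 (0.11, adjusted p = 0.0116), or DZ replicates 2 (adjusted p = 0.0114) and 3 (adjusted p = 0.0107). The Adk call did not hold without SAM replicate 1 (-0.12, adjusted p = 0.0251), SAM replicate 2 (-0.17, adjusted p = 0.0122), adenine replicate 1 (-0.16, adjusted p = 0.0139) or adenine replicate 2 (-0.15, adjusted p = 0.0194). Neither call held without a trend of variance on level (adjusted p = 0.0192 for Mtap and 0.0117 for Adk) or in a fit of the SAM and adenine dishes alone (adjusted p = 0.0268 and 0.0118). With reads scaled to plain totals, the calls of Hprt (-0.10, adjusted p = 0.0248) and Adk (-0.11, adjusted p = 0.0466) did not hold.

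No difference between SAM and adenine was called for the other four. For Aprt the log2 difference was 0.01 (95% interval -0.09 to 0.11) and -0.05 without SAM replicate 3. For Mri1 it was 0.003 (95% interval -0.12 to 0.13), for Adi1 -0.08 (95% interval -0.20 to 0.04) and for Ada 0.14 (95% interval -0.08 to 0.37). The intervals of Aprt and Mri1 leave room for differences of little over 0.1, and that of Ada for more. DZ was given at another dose, so its values stand beside these without a test. Under DZ, Pnp (0.61) stood close to its value under SAM (0.64), Adk (0.18) close to that under adenine (0.23), and Aprt (0.35) and Ada (0.69) apart from both.

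**Figure D4:**
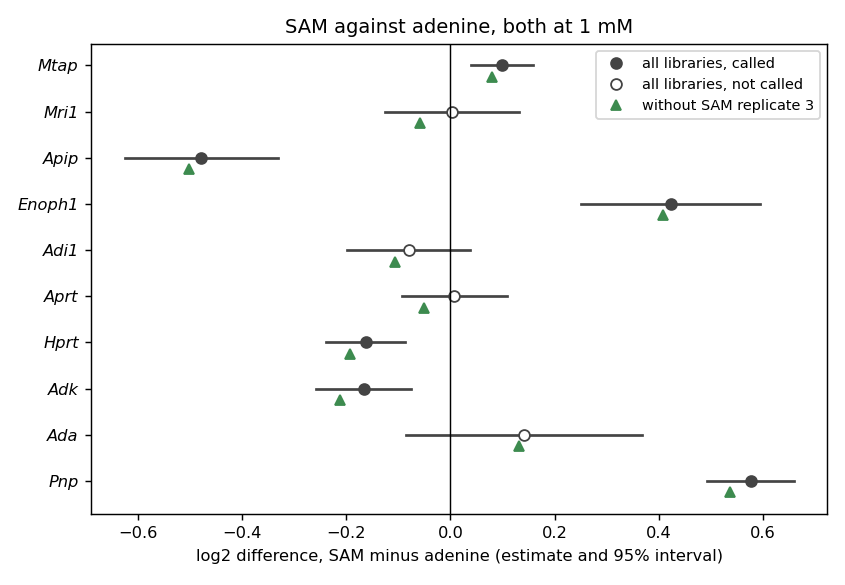
Log2 difference of SAM minus adenine (horizontal axis) for each of the 10 enzymes, with 95% intervals from limma; filled circles passed an FDR of 0.01, open circles did not, and triangles give the estimate without SAM replicate 3. Pnp and Enoph1 lie to the right of 0, Apip lies to the left, and Aprt and Mri1 lie near 0.

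The steps that feed and drain this salvage network were followed in 9 related lists, of whose 62 named genes 43 were listed. Of these 27 changed under DZ (18 upward, 9 downward), 22 under adenine (7 upward, 15 downward) and 32 under SAM (16 in each direction). These are 62.8%, 51.2% and 74.4% of the 43, where 45.9%, 61.6% and 69.3% of all genes passed, so that the share under SAM was near that of all genes and the share under adenine below it. The 43 genes had a median of 0.11 with DZ, -0.03 with adenine and 0.02 with SAM on the log2 scale.

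At the end of the methionine branch, all 3 listed transaminases fell under SAM, a direction in which 35.7% of all genes passed. Got1, the cytosolic aspartate aminotransferase, was at most 5.31 log2 CPM under SAM, where its highest CTL dish stood at 7.14, and the groups lay apart without overlap. It fell by 1.79 under SAM (SE 0.039, adjusted p = 4.23e-15) and by 0.83 under adenine (adjusted p = 3.38e-11), and rose by 0.16 under DZ (adjusted p = 3.17e-03). Kyat1, a glutamine transaminase that can aminate the keto acid of methionine, fell by 0.78 under SAM (adjusted p = 6.33e-08) and rose by 0.37 under DZ (adjusted p = 4.24e-04), with -0.02 under adenine (adjusted p = 0.819).

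The list of SAM decarboxylation, polyamine synthesis and S-adenosylhomocysteine hydrolysis had 6 listed genes. All 6 changed under DZ, 3 in each direction, where 45.9% of all genes passed (22.6% higher and 23.4% lower). Amd1, Srm and Sms of these lie upstream of MTAP, while Ahcy and the related Ahcyl1 and Ahcyl2 do not. Sms, the spermine synthase that releases methylthioadenosine, fell by 0.50 with DZ (adjusted p = 6.61e-08), 0.25 with adenine (adjusted p = 4.80e-05) and 0.18 with SAM (adjusted p = 6.95e-04). Ahcy, the target of DZ, fell by 0.24 under DZ (adjusted p = 2.69e-06) and by 0.23 under SAM (adjusted p = 1.82e-06), with -0.03 under adenine (adjusted p = 0.305). Ahcyl2, a protein related to AHCY, fell most with SAM (-0.63, adjusted p = 1.75e-08), followed by adenine (-0.48, adjusted p = 4.90e-07) and DZ (-0.38, adjusted p = 1.36e-05).

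Around the adenosine members, Nt5e, the ectonucleotidase that makes adenosine from AMP outside the cell, was the most changed of its list. It lay at 6.58 to 6.61 log2 CPM in CTL, 5.25 to 5.36 under adenine and 4.94 to 5.04 under SAM, without overlap, and fell by 1.29 (adjusted p = 3.09e-13) and 1.62 (adjusted p = 9.81e-15), with 0.07 under DZ (adjusted p = 0.139). Slc29a1, the equilibrative nucleoside transporter, rose by 0.79 with adenine (adjusted p = 7.06e-11) and 0.71 with SAM (adjusted p = 1.59e-10), with -0.10 under DZ (adjusted p = 0.0375). Dck, the deoxycytidine kinase that also takes deoxyadenosine, rose by 1.46 with SAM (adjusted p = 6.11e-11) and 1.33 with adenine (adjusted p = 2.76e-10), with 0.06 under DZ (adjusted p = 0.483).

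Ampd3, an AMP deaminase, had log2 fold changes close to those of Pnp, 0.66 with SAM (adjusted p = 2.71e-09), 0.61 with DZ (adjusted p = 3.62e-08) and -0.03 with adenine (adjusted p = 0.561). Slc43a3, a carrier of purine bases, rose by 0.96 with DZ (adjusted p = 1.08e-09), 0.59 with SAM (adjusted p = 3.75e-08) and 0.23 with adenine (adjusted p = 1.00e-03). Adal, annotated as an adenosine deaminase-like gene, rose by 0.61 with adenine (adjusted p = 3.58e-05), with 0.23 for SAM (adjusted p = 0.0356) and -0.06 for DZ (adjusted p = 0.601). Among the adenylate kinases, which exchange phosphates between AMP, ADP and ATP, all 6 listed genes changed under SAM, 3 in each direction, where 69.3% of all genes passed (33.7% higher and 35.7% lower). Ak5 fell by 1.29 (adjusted p = 6.31e-14) and Ak4 by 1.00 (adjusted p = 8.67e-10) under SAM, and Ak5 by 0.85 under adenine (adjusted p = 1.08e-11).

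Of the enzymes that interconvert purine nucleotides, Impdh2, the IMP dehydrogenase on the way to GMP, fell by 0.93 under DZ (adjusted p = 3.08e-09), with -0.02 under adenine and 0.02 under SAM (adjusted p = 0.785 in both). Adss1, an adenylosuccinate synthetase with few reads, fell by 1.63 under adenine (SE 0.21, adjusted p = 5.30e-06). Xdh, which oxidises hypoxanthine and xanthine and so removes the substrate of HPRT, was the only listed gene of purine breakdown among 7 named. It rose by 1.27 under DZ (SE 0.13, adjusted p = 8.24e-07) and fell by 0.69 under adenine (adjusted p = 1.88e-04), with -0.04 under SAM (adjusted p = 0.797). Among the genes of PRPP synthesis, which supplies APRT and HPRT, all 5 changed under DZ (45.9% of all genes), and Prpsap2 fell (-0.35, -0.40 and -0.45) and Prps1l3, named as Prps1-like and possibly sharing reads with Prps1, rose (0.41, 0.34 and 0.42) under DZ, adenine and SAM. Without SAM replicate 3, 30 of the 32 related genes called under SAM still passed, Nt5c3 and Nt5c3b being the exceptions. Of the related genes named here, Adss1 moved most, from -0.57 to -0.74, and passed only then.

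**Figure D5:**
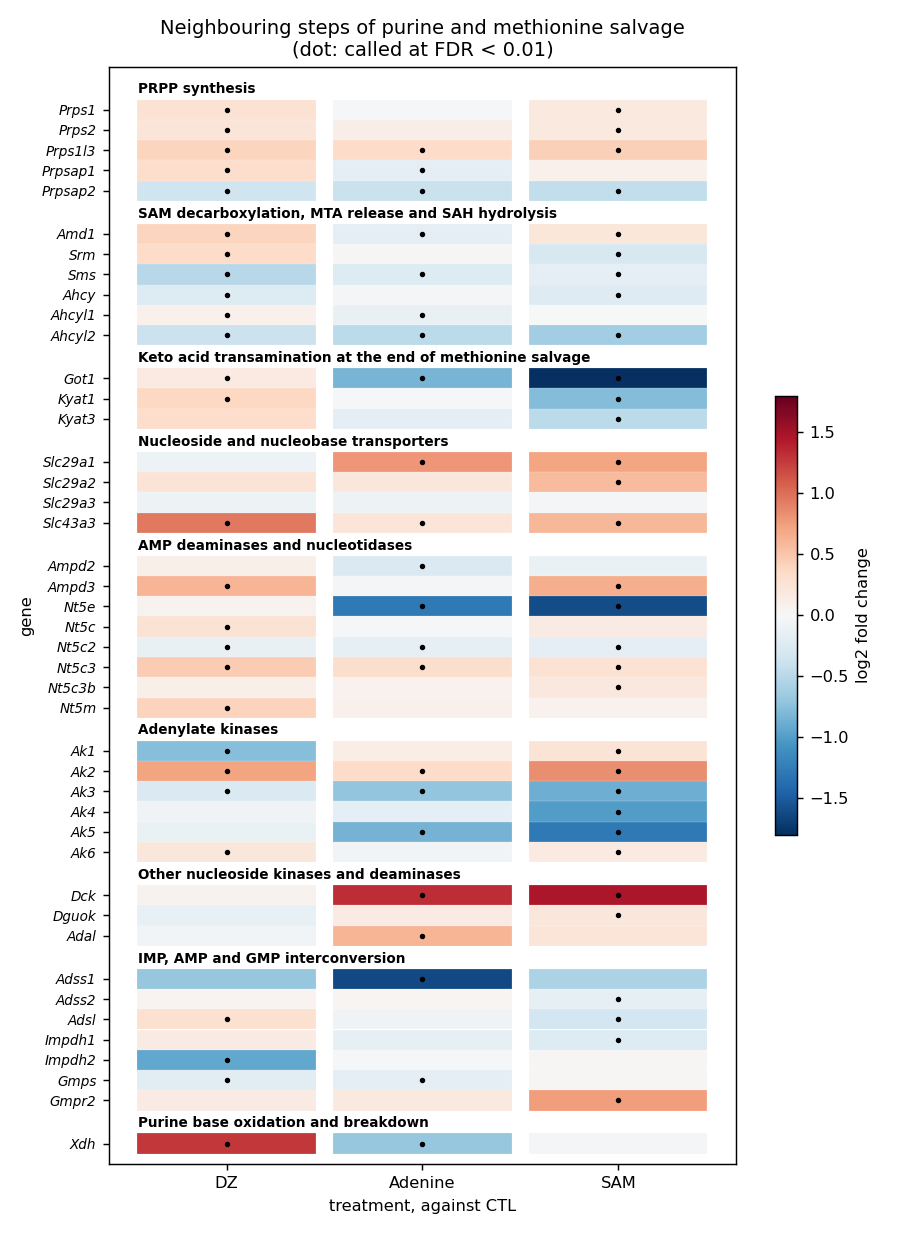
Log2 fold change against CTL (colour scale, blue for lower and red for higher) of the 43 listed genes of the related steps under DZ, adenine and SAM; dots mark genes that passed an FDR of 0.01. Got1, Nt5e and Ak5 are blue and Dck and Slc29a1 are red under both adenine and SAM, and Xdh is red under DZ and blue under adenine.

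Genes whose profile over the 12 libraries was closest to that of a member were ranked by the root mean square difference in log2 units after each gene was centred on its own mean. Closest to Mtap were Rer1 (0.032), Fbxo22 (0.034) and Tmed10 (0.041), set against a range of 0.34 for Mtap itself. Closest to Aprt were Zfp593 (0.049), Stambpl1 (0.053) and Bid (0.055), against a range of 0.92. Closest to Ada were Fadd (0.11), Psmg3 (0.11) and Retreg1 (0.12), against a range of 0.94. Bid, for example, had log2 fold changes of 0.32 under DZ, -0.51 under adenine and -0.50 under SAM, beside 0.35, -0.48 and -0.48 for Aprt. None of these 9 genes was a member or belonged to the related lists.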

How the data were processed

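Polyadenylated RNA of the 12 dishes was sequenced with a stranded kit in paired reads of 76 bases. By the study's methods, reads were trimmed (Trimmomatic), aligned to GRCm39 under GENCODE vM27 (HISAT2) and quantified (StringTie), and the authors kept genes that reached 1 CPM in every library before their edgeR step. Tool versions are not given in the sources used here. The deposited table holds log2 CPM, in which the authors' step adds a prior count of 2 before the logarithm. Taking it off gave whole reads for 100% of values (within 0.01 of a read). These reads come from StringTie's coverage and are estimates.

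All 12591 genes were tested with limma 3.58.1 (R 4.3.3; lmFit and trended eBayes), with the 12 libraries in 1 model, Benjamini-Hochberg adjustment and an FDR of 0.01. A count model was not the main test because the values are logarithms, and limma-voom on the recovered reads was an alternative. Scripts were tested on simulated data. The salvage enzymes, related lists and marker lists were chosen with earlier results of these data known. Named beyond the members were Ahcy, the 2 genes of each related list with the largest change among those called in a comparison with CTL, the 3 genes closest to Mtap, Aprt and Ada with a mean log2 value of at least 3, and listed paralogs or overlapping genes. Symbols, positions and exons came from GENCODE vM39 (12575 of 12591 identifiers matched), and promoters from RefSeq (GRCm38.p6), placed on GRCm39 by exact match. Python 3.11.15, numpy 2.4.6, pandas 2.3.3, Biopython 1.88 and matplotlib 3.10.9 were used. Same-numbered libraries deviated from their group means with r across genes between -0.142 and 0.181. The labels do not say whether a number marks a shared batch, and these correlations, from groups of 3, cannot exclude it. The numbers were not used to pair dishes in the main test.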

Additional observations from a re-analysis of the deposited data

How the results depend on the processing

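Over 22 alternatives (12 of them leaving out a library), the counts of genes and of members that passed stayed within 1.5 times those reported, and 23 of the 40 member values kept their direction and their side of the threshold wherever they were tested. The alternative that kept only genes with a mean log2 value of at least 3 left out Ada, and 6 members passed under DZ there. The values of Ada were judged in the other alternatives alone. Leaving out each library in turn, the members that passed numbered 6 to 8 under DZ, 3 to 5 under adenine, 7 under SAM and 4 to 6 between SAM and adenine. The direction turned in values that had not passed. These were Mtap under adenine with median centring (-0.0083), Mri1 with reads scaled to plain totals (0.0504 under adenine and 0.11 under SAM), and, leaving out a library, Mri1 (-0.0592 to 0.0401 under adenine, -0.0688 to 0.0430 under SAM, -0.0575 to 0.0508 for SAM minus adenine), Ada (-0.15 to 0.0596 under adenine, -0.0099 to 0.20 under SAM) and Aprt for SAM minus adenine (-0.0515 to 0.0406). Scaling to plain totals raised the median of all genes under SAM to 0.11, and the share of calls that were higher from 48.5% to 61.2% under SAM and from 48.6% to 63.2% between SAM and adenine. Taken relative to that median, member values under SAM differed from those reported by 0.015. This follows by arithmetic, since the scaling moves every gene of a comparison by the same amount, and it is no test of the member values. Why the median and the share of higher calls rose was not tested. With the replicate numbers as a block, 7, 5, 7 and 6 members passed under DZ, adenine, SAM and between SAM and adenine, and 5762, 7739, 8734 and 5337 genes, Hprt under adenine being the member call that changed. With the length of the canonical transcript in place of all annotated exons, chosen after seeing the data, levels in CTL per kilobase were 165 (Aprt), 54.4 (Mtap), 46.9 (Hprt), 24.7 (Pnp), 22.6 (Adk), 22.1 (Adi1), 18.7 (Apip), 15.0 (Mri1), 7.72 (Enoph1) and 3.44 (Ada). Depth limits Ada most, with the fewest reads and the widest intervals of the members.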
